A study of Mus musculus with 7 samples.

Results

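The cadherins and protocadherins are calcium-dependent adhesion proteins of the cell surface, and their genes were followed in sorted mouse pancreatic alpha cells with and without the homeodomain factor Nkx2-2. Members were the table entries whose symbol is Cdh or Pcdh followed by digits, or starts with Pcdha, Pcdhb or Pcdhg, without Cdh5 and Cdh19, which gave 90 of 55536 genes. They comprise 5 type I and 11 type II classical cadherins, 5 other cadherins, 3 delta1, 5 delta2 and 3 other protocadherins, and 58 clustered protocadherins (14 Pcdha, 22 Pcdhb and 22 Pcdhg). The 4 control libraries came from Nkx2.2+/+;Gcg-iCre;Rosa26:tdTomato mice and the 3 knockout (KO) libraries from Nkx2.2fl/fl;Gcg-iCre;Rosa26:tdTomato mice, on the strain that the design text writes as C57B1/6J. Both groups therefore carried the Cre recombinase driven by the glucagon gene and the tdTomato reporter by which the cells were sorted, and they differed in the floxed Nkx2-2 alleles. Ages, sexes and whether a library pooled animals are not stated in the labels, so the p-values measure the spread between these libraries only. KO libraries 1 and 2 match sample titles, while the column of the remaining KO library is numbered 4, as is that of control 4, and no KO title has that number. It is called the unnumbered KO library because its number comes from the column name alone.

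Classical cadherins join neighbouring cells by binding the same or a related cadherin on the opposite membrane, and their cytoplasmic tails hold beta-catenin and p120-catenin, which link the junction to actin. E-cadherin (Cdh1) and N-cadherin (Cdh2) are the main classical cadherins of islet endocrine cells. Protocadherins lack the catenin-binding tail. The clustered ones lie in tandem arrays in which each promoter drives its own variable exon, and the alpha and gamma genes splice that exon to constant exons shared by the whole array.

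The libraries held between 45483504 and 72456557 counts, and between 82 and 89 of the 90 members had at least 1 count in a library. Control 4 and the unnumbered KO library were the deepest of their groups, and control 4 stood apart with 31024 genes that had a count, against 23150 to 25873 in the other 6 libraries. Nkx2-2 itself had 8596, 11199, 12297 and 9782 normalized counts (counts divided by a DESeq2 size factor for depth) in the 4 controls and 7758, 7534 and 7694 in the KO libraries (values always follow the order controls 1 to 4, then KO 1, KO 2, unnumbered). Its log2 fold change was -0.45 (DESeq2 adjusted p = 0.0218, edgeR 0.152), and without any one of 5 libraries the DESeq2 adjusted p rose above 0.05, to at most 0.156. Which exons the floxed allele loses is not given in the sources used here, so counts over the whole gene are a weak check of the deletion. Cdh1 and Cdh2, which mark this gene family in islet cells, and the alpha cell markers, led by Gcg, were abundant in every library, and so were beta and delta cell markers, whose values close the account.

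Of the 90 members, 78 had a mean count high enough to receive an adjusted p, and 6 of them passed 0.05 in DESeq2. Higher in KO were Cdh4, Cdh8, Cdh11 and Pcdh15. Lower were Cdh9 and Pcdh8. The 6 calls are 7.69% of the members with an adjusted p, against 4.51% of all 17571 genes tested (2.24% higher and 2.27% lower). With library totals as size factors, a scaling that moved the median log2 fold change of all genes by 0.10, the calls over all genes split into 684 higher and 297 lower in place of 394 and 398, and the 6 members were called together with Cdh1. In edgeR, whose quasi-likelihood test called 1.05% of 19310 genes, Cdh4 and Pcdh15 were the 2 members called among 81, both higher (0.404% of all genes were higher and 0.647% lower in edgeR). None of the 57 clustered protocadherins with an adjusted p was called by either tool, and the lowest DESeq2 adjusted p among them was 0.239; 3 of them had an unadjusted p under 0.05, against 12.2% of all genes tested. Libraries of the groups did not overlap for 11 of the 78 members (14.1%), 8 higher and 3 lower, against 12.0% of all genes tested (6.07% higher and 5.94% lower). This share was 42.9% outside the arrays (9 of 21, 6 higher and 3 lower) and 3.51% among clustered genes (2 of 57). All 6 DESeq2 calls lay outside the arrays, where they are 28.6% of the 21. A positive log2 fold change was found for 61 of the 78, against 51.8% of all genes tested. Of the 61, 47 were clustered protocadherins, of which the Pcdha and Pcdhg genes share exons. Outside the arrays it was 14 of 21. The median log2 fold change was 0.33 over these 78 members and 0.01 over all genes tested.

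The order of abundance was led by the pair of classical cadherins known from islets. On the scale of normalized counts per kilobase of exon, the control level was 2932 ± 472 (SD, n = 4) for Cdh1, 1179 ± 296 for Cdh2 and 633 ± 59.2 for Pcdh1, a delta1 protocadherin. These 3 levels were separated by more than their SDs. Next came Pcdhgb6 at 493 ± 118, whose spread reached that of Pcdh1, and Pcdhga5 at 454 ± 76.6, which did not differ beyond their spread, then Pcdhgc3 (324 ± 143), Pcdhga6 (267 ± 96.3), Cdh8 (232 ± 19), Pcdhgb7 (228 ± 43.3) and Pcdhga10 (219 ± 149), again with overlapping spreads. For clustered genes the length counted here is that of exons not shared with another gene, so their place in the order is uncertain. The other called members stood lower, with Pcdh8 at rank 19 (153 ± 13.3), Pcdh15 at rank 23 (124 ± 17.7), Cdh4 at rank 28 (91.0 ± 14.7), Cdh9 at rank 29 (84.0 ± 24.4) and Cdh11 at rank 59 (12.8 ± 4.23). In KO libraries the levels per kilobase were 4051 ± 631 (SD, n = 3) for Cdh1, 1370 ± 17.2 for Cdh2, 217 ± 30.1 for Pcdh15 and 170 ± 15 for Cdh4, while Pcdh8 and Cdh9 had 38.8 ± 26.3 and 38.6 ± 9.51.

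**Figure D1:**
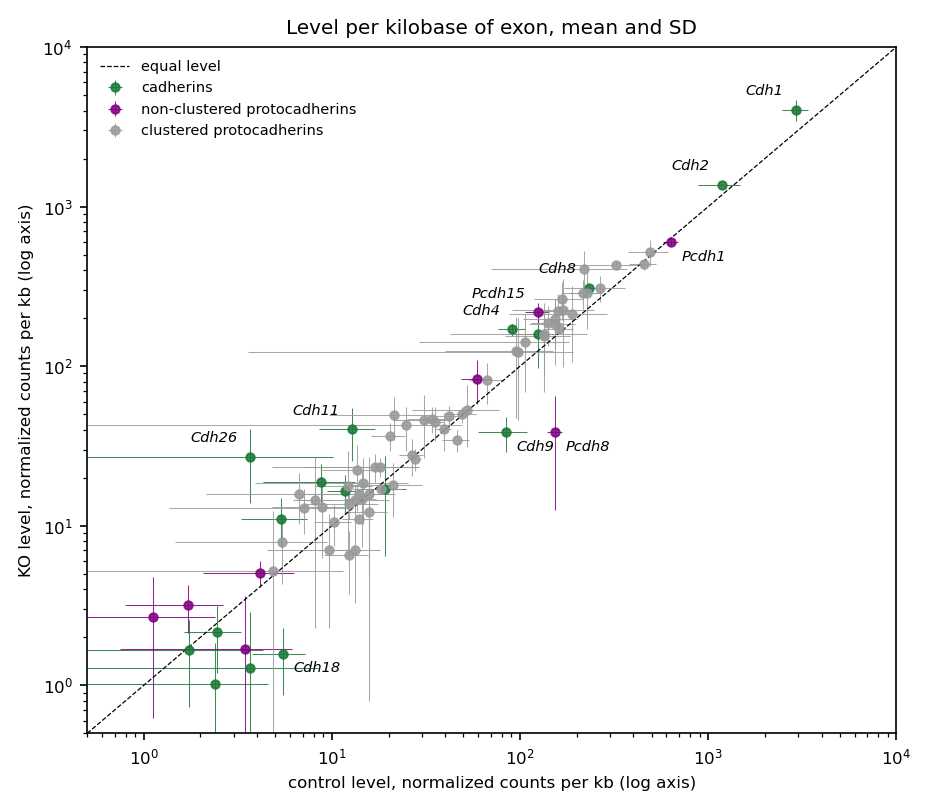
Mean level of each member in KO (y axis) against control libraries (x axis), in normalized counts per kilobase of exon (of unshared exon for clustered genes) on log axes, with SD bars (4 control and 3 KO libraries); 7 members under 1 count per kilobase in a group are not drawn. Cdh1, Cdh2 and Pcdh1 lie at the top near the dashed line of equal level, Pcdh8 and Cdh9 lie below it, and Cdh4, Pcdh15 and Cdh11 lie above it.

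Among type I cadherins, Cdh4 was called and Cdh1 and Cdh2 were not. Cdh4 encodes R-cadherin, a close relative of N-cadherin that can pair with it. Its normalized counts (chr2:179442431-179899373, GRCm38) ran 609, 795, 689 and 548.5 across controls, against 1318, 1264 and 1108 with KO. Every KO library lay above every control, and the KO mean was 186% of the control mean. It rose by 0.90 on the log2 scale (SE 0.171; adjusted p = 1.52e-05 in DESeq2, 0.0286 in edgeR), and the call held without any single library. As with every gene here, more cells of a type and more RNA per cell cannot be told apart in such bulk libraries.

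Cdh1 (chr8:106603351-106670246) had 14412, 15794, 12601 and 10835 normalized counts in controls and 20207, 20186 and 15196 in KO libraries. KO 1 and KO 2 lay above all controls, and the unnumbered KO library lay below control 2. The log2 fold change of 0.47 (SE 0.158) missed the threshold in both tools (adjusted p = 0.0642 in DESeq2, 0.282 in edgeR). Of the 7 fits without a single library, 2 called Cdh1. The DESeq2 adjusted p was 0.0159 without control 2 and 0.00637 without the unnumbered KO library. In the other such fits it ran from 0.085 (without control 4) to 0.484 (without KO 1). It was 0.000399 without control 4 and the unnumbered KO library together. With the column numbers 1, 2 and 4 as pairs (6 libraries, control 3 dropped), the log2 fold change was 0.44 and Cdh1 was called (DESeq2 adjusted p = 6.26e-07). The duct cell markers, 5 epithelial genes, summed to 9928, 12381, 8594 and 8350 in controls and 11901, 12455 and 11947 in KO libraries, with control 2 the highest control there as for Cdh1. Krt7 made up most of this sum, and its groups overlapped (log2 fold change 0.19, DESeq2 adjusted p = 0.772). Krt19 overlapped as well (0.52, DESeq2 adjusted p = 0.984), with its lowest value, 5.87, in KO 1. Sox9, Spp1 and Cftr had log2 fold changes of 1.69, 0.65 and 1.83 without overlap, each at an unadjusted p under 0.05, and Spp1 was called (adjusted p = 0.0246). The part of these markers in the Cdh1 values was not tested.

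Cdh2 had 9521, 12822, 8384 and 7299 normalized counts in controls and 11213, 10969 and 10975 in KO libraries. The 3 KO values fell inside the control range, below control 2 and above the other 3, and the log2 fold change was 0.22 (SE 0.175, DESeq2 adjusted p = 0.806). Of the summed level per kilobase of the 16 classical genes, Cdh1 made up 62.4% ± 1.51 (SD, n = 4 controls) and 65.3% ± 3.4 with KO (SD, n = 3), Cdh2 24.8% ± 2.08 and 22.3% ± 2.44, and Cdh4 1.94% ± 0.177 and 2.75% ± 0.0732. Together Cdh1 and Cdh2 held 87.3% ± 1.53 and 87.6% ± 1.09, a difference smaller than the spread between libraries. The remaining type I genes, P-cadherin (Cdh3) and M-cadherin (Cdh15), had at most 23.5 and 5.78 normalized counts in any library and received no adjusted p.

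**Figure D2:**
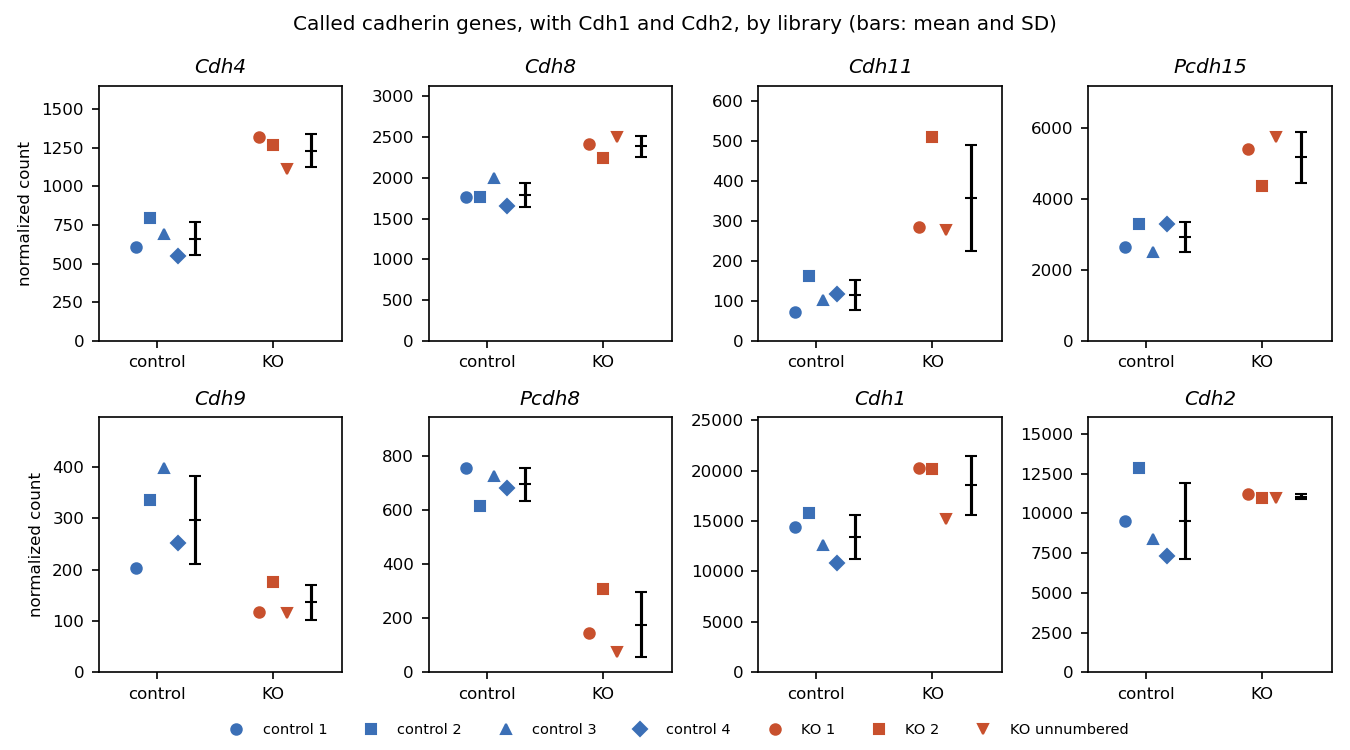
Normalized counts (y axis, from 0) of the 6 called members and of Cdh1 and Cdh2 in each control (blue) and KO (red) library, one symbol per library, with mean and SD as black bars (4 control and 3 KO libraries). The groups are separate for Cdh4, Cdh8, Cdh11, Pcdh15, Cdh9 and Pcdh8 and overlap for Cdh1 and Cdh2.

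Type II cadherins, which sort neurons by adhesion and are expressed in distinct combinations, moved both ways, with 2 of the 8 that had an adjusted p higher, 1 lower and a median log2 fold change of 0.10. Cdh8 (chr8:99024471-99416471), the most abundant of them per kilobase, had 1768, 1761, 1999 and 1649 normalized counts in controls and 2420, 2248 and 2500 in KO libraries. The groups did not overlap, and the KO mean was 133% of the control mean. The log2 fold change was 0.41 (SE 0.116, adjusted p = 0.0114 in DESeq2, 0.0877 in edgeR). The DESeq2 call was lost without KO 1 (0.193), the unnumbered KO library (0.13), control 1 (0.0887), control 2 (0.0662) or control 4 (0.0503), and in the fit paired by the title numbers 1 and 2, which has 4 libraries (0.157).

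Cdh11, also called OB-cadherin and a cadherin of mesenchymal cells (chr8:102632095-102785642), had 72.6, 163, 102 and 118.5 normalized counts in controls and 285.5, 510 and 278 in KO libraries. All 3 KO libraries were higher than the 4 controls, with KO 2 the highest. These values rest on 64 to 164 raw counts in controls and 292 to 494 in KO libraries. On the log2 scale Cdh11 rose by 1.65 (SE 0.353; adjusted p = 0.000205 in DESeq2, 0.0606 in edgeR), and without KO 2 by 1.30, where the DESeq2 adjusted p was 0.0334. The 6 mesenchymal markers summed to between 1346 and 3796 normalized counts in controls and between 2172 and 4003 in KO libraries, with KO 2 the highest library there too. The next highest sum, 3796, was that of control 3, where Cdh11 had 102. None of the 4 markers with an adjusted p was called in DESeq2, 0 had an unadjusted p under 0.05, and the sums overlapped. Pdgfra, a defining fibroblast gene among them, had at most 2.89 normalized counts in any control and 0, 33.05 and 7.41 with KO. Col1a2 and Col3a1 were likewise highest in KO 2, but Col1a1 and Dcn in control 3 and Pdgfrb in control 2. The 6 endothelial markers were also highest in KO 2, at 971 normalized counts against 156.5 to 385 in the other libraries. The part of these markers in the Cdh11 difference was not tested.

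Cdh9 (chr15:16728756-16857094) was lower in KO, with 204, 336, 397 and 251.5 normalized counts in controls and 118, 176 and 116 in KO libraries. No KO library reached the lowest control, control 1, and the KO mean was 46.0% of the control mean. Cdh9 fell by 1.12 on the log2 scale (SE 0.312, adjusted p = 0.0113 in DESeq2, 0.145 in edgeR). The DESeq2 call was lost without KO 1 (0.167), the unnumbered KO library (0.112), control 2 (0.0662) or control 3 (0.115), and in the fit of 4 libraries paired by title number (0.366). Cdh9 lies on chromosome 15 with Cdh6, Cdh10, Cdh12 and Cdh18, and the 3 of these 5 genes with an adjusted p had negative log2 fold changes. Cdh18 had 22.7, 18.9, 36.6 and 21.7 normalized counts in controls and 3.91, 10.3 and 7.41 in KO libraries. Its groups did not overlap, yet its log2 fold change of -1.79 (SE 0.757) had a DESeq2 adjusted p of 0.219 on at most 30 raw counts. Cdh8 and Cdh11 lie on chromosome 8, and the 4 of 7 members there with an adjusted p (Cdh8, Cdh11, Cdh1 and Cdh13) had positive log2 fold changes. These chromosome groups were chosen after their values were seen. The other type II genes with an adjusted p, Cdh6, Cdh7, Cdh22 and Cdh24, had log2 fold changes of -0.20, 0.47, 0.37 and -0.18 and overlapping groups.

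Among the 3 remaining cadherins with an adjusted p, none was called in DESeq2 or edgeR, while all 3 had an unadjusted DESeq2 p under 0.05. Cdh13 (T-cadherin), which is held in the membrane by a lipid anchor and binds adiponectin, had 93.0, 170, 52.3 and 79.5 normalized counts in controls and 207, 275 and 154 in KO libraries, with control 2 above the unnumbered KO library. Its log2 fold change was 1.10 (SE 0.425, adjusted p = 0.142 in DESeq2). Cdh23, the tip-link partner of protocadherin 15 in inner ear hair cells, had 70.3, 142, 68.0 and 81.7 in controls and 144, 158 and 260 in KO libraries. Those groups did not overlap, although control 2 all but reached KO 1, and the log2 fold change was 1.05 (SE 0.391, adjusted p = 0.115). Both genes passed in DESeq2 without control 2, at 0.0059 for Cdh13 and 0.0159 for Cdh23. That was the 1 fit of the 7 without a single library that called either. The DESeq2 adjusted p reached 0.625 for Cdh13 (without KO 2) and 0.657 for Cdh23 (without the unnumbered KO library). Cdh26 had 0, 40.1, 0 and 4.34 normalized counts in controls and 70.4, 126 and 48.9 in KO libraries, from at most 34 raw counts in a control. As for Cdh13 and Cdh23, control 2 was the highest control, and the log2 fold change of 2.88 (SE 1.23) had an adjusted p of 0.226. Cdh26 was called in DESeq2 without control 2 and with libraries paired by number. Cdh16 and Cdh17, cadherins of kidney and gut epithelium, had at most 6 raw counts in any library: Cdh16 was at 0 in all controls, and both were left without an adjusted p.

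**Figure D3:**
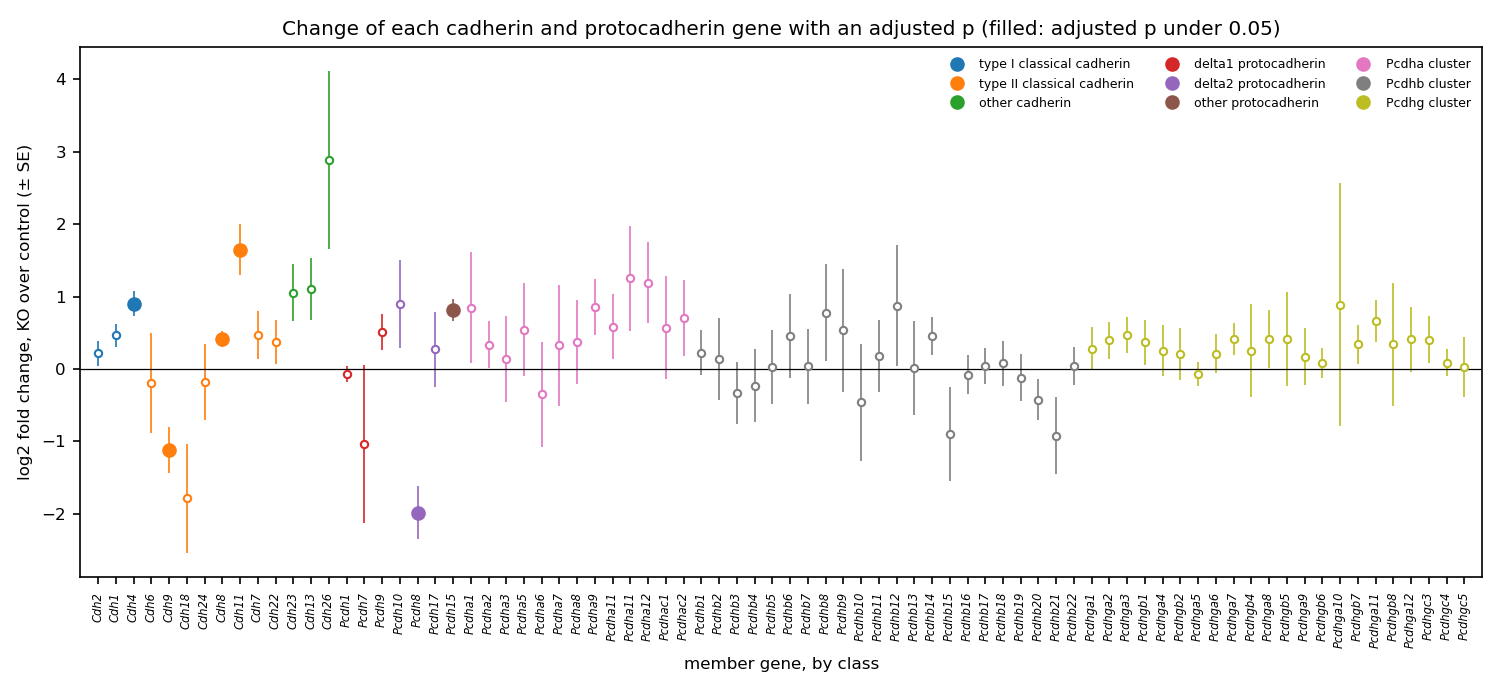
Log2 fold change, KO over control, with its SE for the 78 members that received an adjusted p in DESeq2, grouped by class along the x axis; filled symbols mark the 6 with an adjusted p under 0.05. The filled symbols are Cdh4, Cdh8, Cdh11 and Pcdh15 above 0 and Cdh9 and Pcdh8 below it, and none lies in the Pcdha, Pcdhb or Pcdhg arrays.

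Outside the arrays, Pcdh15 rose and Pcdh8 fell. Pcdh15 (chr10:73099342-74649737) encodes a long protocadherin known from the tip links of hair cells, and had 2653, 3290, 2497 and 3305 normalized counts in controls and 5401, 4366 and 5741 in KO libraries. The lowest KO library, KO 2, stood above the highest control, and the KO mean was 176% of the control mean. This is a rise of 0.82 on the log2 scale (SE 0.152; adjusted p = 1.04e-05 in DESeq2, 0.0339 in edgeR), and the DESeq2 call held without any single library.

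Pcdh8 (chr14:79766775-79771312), also known as arcadlin or PAPC, is a delta2 protocadherin that in neurons is induced by activity and draws N-cadherin from the surface. It had 753, 616, 727 and 683 normalized counts in controls and 145, 308 and 75.6 in KO libraries. The controls lay close together, the KO libraries were all lower and spread more widely, and the KO mean was 25.3% of the control mean. Pcdh8 fell by 1.98 on the log2 scale (SE 0.371, adjusted p = 1.04e-05 in DESeq2, 0.0616 in edgeR). The DESeq2 call held without any single library, with adjusted p-values of at most 0.0127, and the log2 fold change then ranged from -2.67 to -1.62. Of the exon length of Pcdh8, 9.6% also lies under exons annotated on the other strand.

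The other non-clustered protocadherins were not called. Pcdh1 was among the steadiest members, with 5531, 6297, 5351 and 5084 normalized counts in controls and 5287, 5656 and 4957 in KO libraries (log2 fold change -0.07, SE 0.112). Its sign turned to 0.03 with library totals as size factors. Log2 fold changes were 0.51 for Pcdh9 (adjusted p = 0.378), 0.90 for Pcdh10 (0.686), 0.27 for Pcdh17 (0.988) and -1.04 for Pcdh7 (0.922), each with overlapping groups. Pcdh12, Pcdh18, Pcdh19 and Pcdh20 had at most 25.2 normalized counts in any library and received no adjusted p.

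The bases upstream of the called members were read from RefSeq, whose promoter table (GRCm38.p6) has an entry for 22 of the member symbols and for 4 of the 6 called members, Cdh8, Cdh9, Pcdh15 and Pcdh8. They are shown because NK2-class homeodomain factors such as Nkx2-2 bind sites with the core AAGTG, and capitals mark that core or its reverse complement CACTT. Each is written 5′ to 3′ on the strand of its gene and ends before the annotated start. The Cdh8 window is chr8:99416472-99416721 on the minus strand, that of Cdh9 is chr15:16728665-16728755 on the plus strand, that of Pcdh8 is chr14:79771313-79771562 on the minus strand and that of Pcdh15 is chr10:73821617-73821866 on the plus strand. The GENCODE annotation starts Cdh9 earlier than RefSeq, so 91 of its bases are shown, and the Pcdh15 window lies inside the longer GENCODE gene, outside its exons.
Cdh8: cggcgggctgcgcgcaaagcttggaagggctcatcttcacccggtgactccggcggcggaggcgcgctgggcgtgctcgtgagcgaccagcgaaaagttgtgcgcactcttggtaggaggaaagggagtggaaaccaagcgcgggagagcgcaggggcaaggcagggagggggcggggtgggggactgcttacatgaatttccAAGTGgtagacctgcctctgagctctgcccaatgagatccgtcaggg
Cdh9: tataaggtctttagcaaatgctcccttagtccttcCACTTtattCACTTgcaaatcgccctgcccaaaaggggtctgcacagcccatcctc
Pcdh8: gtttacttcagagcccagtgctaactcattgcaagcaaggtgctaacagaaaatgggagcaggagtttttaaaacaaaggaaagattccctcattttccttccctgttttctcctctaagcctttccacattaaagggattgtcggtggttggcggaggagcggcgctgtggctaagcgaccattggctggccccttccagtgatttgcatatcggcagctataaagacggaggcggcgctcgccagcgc
Pcdh15: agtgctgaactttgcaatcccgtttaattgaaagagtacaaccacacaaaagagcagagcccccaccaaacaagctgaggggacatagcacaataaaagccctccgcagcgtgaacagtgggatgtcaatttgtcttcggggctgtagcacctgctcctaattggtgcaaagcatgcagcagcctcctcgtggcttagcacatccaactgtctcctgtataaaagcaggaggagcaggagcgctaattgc

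In these windows of 250 bases before the RefSeq start, Cdh8 held 1 core, beginning 47 bases before the start, and Cdh9 held 3, beginning 215, 206 and 26 bases before it. The Cdh9 core nearest the start lies past the GENCODE start and is not shown. A single longer match, to TNAAGTGG on either strand, was found in the Cdh9 window and overlaps a core. No match to either was in the Pcdh8 or Pcdh15 window. Of 32851 RefSeq windows of the same length, 40.7% held AAGTG on either strand and 2.74% held TNAAGTGG. A match describes the letters only, and binding was not measured here.

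The clustered protocadherins share exons, and the counting rule for shared exons is not given in the sources used here. All 14 Pcdha genes and all 22 Pcdhg genes share exon sequence on the same strand with another gene, against 2 of 22 Pcdhb genes. Pcdha4 had between 0 and 10 raw counts per library although 91.4% of its exon length is shared, while Pcdha2, with 53.3% shared, had 60 to 146. The reads credited to this gene from the shared Pcdha exons were therefore at most 10 in any library, and for the other genes the split between variable and shared exons is uncertain. The symbol Pcdha11 stands beside 2 gene identifiers, and both are counted among the 14.

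Summed over the 14 Pcdha genes, the array gave 681, 478, 465 and 606 normalized counts across controls, against 904.5, 787 and 870.5 with KO. The sums of the groups did not overlap, and the log2 ratio of the KO to the control mean was 0.62 (a description with no test), between 0.54 and 0.73 when any single library was left out. Of the 13 Pcdha genes with an adjusted p, 12 had a positive log2 fold change, 2 had an unadjusted p under 0.05 and none was called. Groups did not overlap for 2 of them (15.4%, near the 12.0% of all genes tested). Pcdha9 had 63.5, 47.2, 39.2 and 52.0 in controls and 85.1, 76.4 and 112 in KO libraries (log2 fold change 0.85, adjusted p = 0.29). Pcdha12 had 57.9, 83.7, 13.1 and 58.5 and then 157, 84.7 and 123 (log2 fold change 1.19, adjusted p = 0.323), so that control 2 all but reached KO 2.

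The 22 Pcdhb genes, which have no constant exons, summed to 2279, 2020, 1866 and 2332 normalized counts in controls and 2360, 2499 and 1942 in KO libraries. The sums overlapped, with a log2 ratio of 0.09 that was 0.19 without the unnumbered KO library and 0.02 without KO 2, and 14 of the 22 genes had a positive and 8 a negative log2 fold change, with a median of 0.03 and 0 unadjusted p-values under 0.05 in DESeq2. Pcdhb14 was the most abundant in counts, at 295 ± 78.6 in controls and 404.5 ± 75 in KO libraries, and was not called (adjusted p = 0.561). Pcdhb20 and Pcdhb4 had log2 fold changes of -0.43 and -0.23, with adjusted p-values of 0.673 and 0.997. Without control 4, Pcdhb8 was called in DESeq2, as were Pcdhgb5 and Pcdhgb8 of the gamma array.

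The 22 Pcdhg genes were the most abundant array, with sums of 11467, 12034, 9270 and 15328 normalized counts in controls and 13299, 11780 and 19602 in KO libraries. Control 4 was the highest control and the unnumbered KO library the highest of all, so the sums overlapped. The log2 ratio was 0.31 with all libraries, 0.06 without the unnumbered KO library and 0.20 without it and control 4. The SD of the sums was 2504 among controls and 4148 among KO libraries. For 16 of the 22 genes, control 4 and the unnumbered KO library both stood above all 5 other libraries, against 16.8% of all genes tested. Both are also the libraries of column number 4. Pcdhgb8 had 174, 156, 57.5 and 585 in controls and 196.5, 196 and 530 in KO libraries, and Pcdhgb5 had 352, 389, 207 and 1007 and then 521, 403 and 1026. In both genes the 2 deepest libraries, one of each group, stood far above the others, and control 3 was the lowest, as it was for 16 of the 22 genes. Over the array, 21 of 22 log2 fold changes were positive with a median of 0.34, 1 had an unadjusted p under 0.05 (Pcdhga11), and none was called. Pcdhga11 was lowest in control 4, at 249 normalized counts, while KO 2 (512) lay below control 2 (522).

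Control 4 also had few counts for the Pcdhg genes with the largest share of exon length under exons of the opposite strand. For Pcdhga10, with 55.2% of its exon length so covered, control 4 had 0 counts, under the floor of 3 counts (2.17 normalized), while the other controls had 850, 788 and 647 normalized counts and the KO libraries 1069, 722 and 1374. Pcdhgc3 (28.4% covered) had 421 in control 4 and at least 1146 in the other libraries, and Pcdhga11 (29.0%) had 249 and at least 493. These are the 3 Pcdhg genes with at least 20% of exon length covered, and control 4 was the lowest library for each. The Pcdha11 entry ENSMUSG00000102206 (44.3% covered) likewise had 4.34 normalized counts in control 4 and at least 24.8 in each of the other libraries. Control 4 was not the lowest library for the remaining members with at least 20% covered. Pcdhb12 (63.5%) had 11.6 in control 4 and 2.6 in control 3, and Pcdh7 (21.1%) had 24.6 in control 4 and 1.96 in KO 1. Nor was it the lowest for any Pcdhg gene under 20%. Pcdhgb7 (16.4%), Pcdhga7 (10.3%) and Pcdhga8 (8.8%) had 746, 806.5 and 710 in control 4, their highest control. Whether control 4 was counted with another strand setting is not given in the sources used here and was not tested. Without control 4 the log2 fold change of Pcdhga10 was 0.47 (adjusted p = 0.24), from 0.89 with it.

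**Figure D4:**
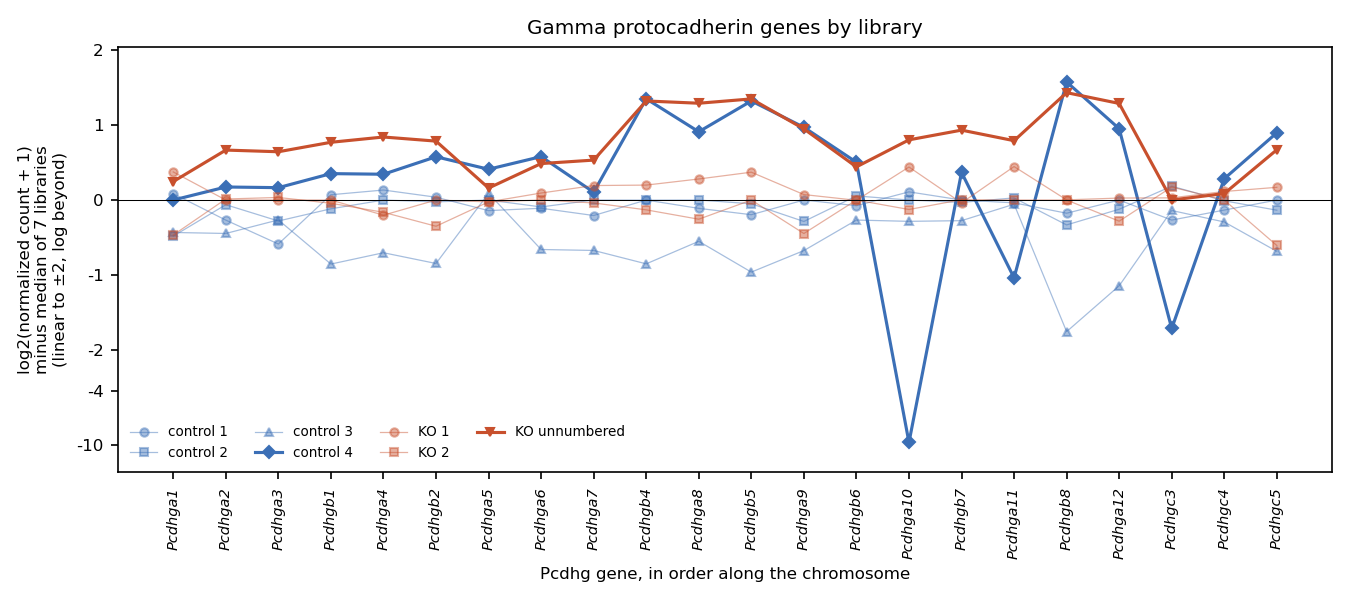
Deviation of each library from the median of all 7, in log2(normalized count + 1), for the 22 Pcdhg genes in their order along the chromosome (x axis); blue lines are controls and red lines KO libraries, and the y axis is linear to 2 and log beyond. Control 4 and the unnumbered KO library run above the others over most of the array, and control 4 drops at Pcdhga10, Pcdhga11 and Pcdhgc3.

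The partners and relatives of the members were followed in 8 lists with 88 genes, of which 73 had an adjusted p, 7 were higher and 2 lower in DESeq2, where 2.24% of all genes tested were higher and 2.27% lower. Their median log2 fold change was 0.02. Among 13 catenins and armadillo proteins, 2 were higher and 1 lower. Ctnna3 (alpha-T-catenin), which ties cadherins to actin in heart muscle, had 10.2, 48.4, 32.7 and 25.3 normalized counts in controls and 108, 259 and 198 with KO. It rose by 2.70 on the log2 scale (SE 0.526, adjusted p = 2.98e-05, edgeR 0.0536). Every KO library was above every control. Its neural relative Ctnna2 (alpha-N-catenin) was lower, from 1051 ± 146 (SD, n = 4) to 740 ± 40.55 (SD, n = 3), with a log2 fold change of -0.51 and an adjusted p of 0.0295 (edgeR 0.136). That call held in 1 of the 7 fits without a single library, the one without control 2. Pkp4, a p120-related protein, rose from 5315 ± 274 to 6974 ± 762 (log2 fold change 0.39, adjusted p = 0.0133, edgeR 0.129), a call lost without KO 1, KO 2, control 2 or control 3, with adjusted p-values of up to 0.192. The core catenins were not called, with log2 fold changes of 0.24 for Ctnnb1, -0.03 for Ctnna1, 0.05 for Jup and 0.00 for Ctnnd1.

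Of 18 atypical cadherins outside the naming rule, 3 of the 14 with an adjusted p were higher and none lower. Fat4, a giant cadherin of planar cell polarity and growth control, had 458, 694, 256 and 257 normalized counts in controls and 1555, 1785 and 2257 in KO libraries, with no overlap. Fat4 rose by 2.17 on the log2 scale (SE 0.32; DESeq2 adjusted p = 3.77e-09, edgeR 0.0264). Celsr1, a cadherin of the same polarity system, rose from 378 ± 45.4 to 686 ± 27.5 (log2 fold change 0.86, adjusted p = 3.1e-05, edgeR 0.0344). Cdhr2, a protocadherin of the brush border, rose from 892 ± 407 to 2152 ± 325 (1.27, adjusted p = 0.00138, edgeR 0.126), a call lost without control 4 (0.0733) or without control 4 and the unnumbered KO library (0.125). The desmosomal cadherin Dsc2 had 377, 564, 371 and 292 in controls and 820, 808 and 776 in KO libraries (log2 fold change 1.00, adjusted p = 0.000834, edgeR 0.0669). It was 1 of 2 desmosomal cadherins with an adjusted p, of 9 listed.

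In the junction linker list, Lima1 (EPLIN), which binds actin at the cadherin-catenin complex, was the single call of 11, rising from 1887 ± 284 to 2942 ± 353 (log2 fold change 0.64, adjusted p = 0.0015, edgeR 0.0737). Without KO 1 its adjusted p was 0.0888. Among 11 cytoplasmic partners of protocadherins, Ptk2b (Pyk2), a kinase that clustered protocadherins bind, was lower. It had 5558, 6473, 5147 and 6144 normalized counts in controls and 3918, 3964 and 3838 with KO. The groups did not overlap, and the gene fell by 0.58 on the log2 scale (SE 0.111; DESeq2 adjusted p = 2.21e-05, edgeR 0.0346). DESeq2 and edgeR made no call among 9 cadherin proteases (median log2 fold change 0.03, 1 unadjusted p under 0.05), 6 repressors of E-cadherin (3 with an adjusted p, median -0.33, 1 unadjusted p under 0.05) or 11 regulators of clustered protocadherin promoter choice such as Ctcf and Smchd1 (median -0.04, 0 unadjusted p-values under 0.05).

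Markers of other cells that the sort could hold were summed in each library. The Ppy gene, which marks the pancreatic polypeptide cells of the islet, ranged from 178540 to 401493 normalized counts in controls and from 615185 to 783711 in KO libraries, without overlap, and the alpha list of 8 genes was lower, from 6417122 to 8411910 in controls and from 2925132 to 4240504 in KO libraries. In that list 6 of 8 genes were called lower. The beta list (8 genes) lay between 336739 and 690569 in controls and 529402 and 973010 in KO libraries, and the delta list (4 genes) between 196263 and 398978 and between 355301 and 632402, both with overlap. Of their genes, 1 beta and 1 delta marker were called higher, and 4 beta and 3 delta genes had an unadjusted p under 0.05 in DESeq2. Every gene of both lists had a positive log2 fold change, with medians of 0.39 (beta) and 0.71 (delta). Duct sums overlapped, with 1 of 5 genes called higher and 3 at an unadjusted p under 0.05. Leukocyte sums (6 genes) lay between 976 and 1545 in controls and between 887.5 and 1036 in KO libraries, with 1 gene called lower. That gene, C1qa, was the largest part of the sum in every library (log2 fold change -0.82, DESeq2 adjusted p = 0.0113, edgeR 0.14). Every other leukocyte gene had a positive log2 fold change and none of them was called. Cd74 was higher without overlap (1.55, DESeq2 adjusted p = 0.139), and Ptprc, C1qb and Lyz2 were at 0 in some library. Acinar sums (7 genes) ranged from 189 to 12221 and from 1025 to 6148, and Schwann cell sums (5 genes) from 658 to 1086 and from 708.5 to 941, with no gene of either called in DESeq2 and 0 acinar and 1 Schwann cell gene at an unadjusted p under 0.05. Endothelial sums overlapped too, with none of the 5 genes tested called and 1 at an unadjusted p under 0.05. The endothelial cadherin Cdh5 had 24.96, 14.2, 15.7 and 5.78 in controls and 17.6, 93.0 and 28.2 in KO libraries, and Cdh19 of Schwann cells lay between 57.8 and 159.5 in all libraries. No marker list other than Ppy and the alpha list was separate between the groups, and the part of these markers in the member differences was not tested.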

How the data were processed

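Alpha cells sorted for tdTomato gave RNA by the Qiagen RNeasy Micro kit and libraries by the Takara SMARTer Stranded Total RNA-Seq v2 Pico kit, per the labels' protocols. The authors deposited 1 table of raw counts per gene for 7 libraries. FastQC, STAR, featureCounts, DESeq2 and mm10 are named, without versions or settings, per the submitters' processing notes, and strand and multi-overlap settings are not given in the sources used here. Between 84.4% and 88.9% of small counts were even, so a read pair may have been counted as 2 and the independent depth is lower than the totals. The floor of 3 counts reflects counting error alone, and the number of libraries limits the precision for abundant genes.

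KO was compared with control over all 55536 entries, of which 35178 had a count, with the DESeq2 1.42.0 Wald test in R 4.3.3 (no covariate, as the design text states; Benjamini-Hochberg adjustment; threshold 0.05). Independent filtering was set for the 0.05 threshold, in place of the default, and left genes with a mean under 15.5 normalized counts without an adjusted p. Unless edgeR is named, an adjusted p is from this fit. The quasi-likelihood test of edgeR 4.0.16 was the first alternative, and others changed the size factors, the filters, the libraries or added a replicate block. Deviations from the group means correlated at 0.231, 0.301 and 0.482 over 14570 genes for the column pairs numbered 1, 2 and 4. All 3 exceed 0.1, so the fit paired by column number, chosen after seeing the data, is given beside the results whose call it changes. Columns of unlike number were not correlated, so these values cannot tell whether equal numbers mark pairs. The pair numbered 4, with the highest value, also joins the deepest library of each group. The number 4 of the KO column comes from its name and matches no KO title. Normalized counts were divided by DESeq2 size factors. Levels per kilobase used GENCODE M21 exon lengths on GRCm38, which matched all 55536 identifiers.

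Named were Cdh1, Cdh2, every called member, the 10 members highest per kilobase in controls, the 5 highest and 5 lowest log2 fold changes among members with a mean of at least 50 normalized counts, Nkx2-2 and called partners, and further members named beside them were chosen after their values were seen. The members and lists were chosen with earlier results of these data known.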

Additional observations from a re-analysis of the deposited data

How the results depend on the processing

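Over all genes, DESeq2 called 792, edgeR 203 and edgeR without control 4 called 249, and for the members these fits called 6, 2 and 2. Without any one library the DESeq2 calls ran from 430 (without KO 1) to 910 (without control 4) over all genes and from 4 (without KO 1) to 8 (without control 2 or control 4) among members. Cdh4, Cdh11, Pcdh15 and Pcdh8 were called in each of the 7 fits without a library. With a replicate block by column number (1, 2 and 4; 6 libraries), added after seeing the data, 1008 genes and 8 members were called, the 6 with Cdh1 and Cdh26. With a block by the numbers that titles and columns share (1 and 2; 4 libraries), 580 genes and 6 members were called, Cdh1 (0.00166) and Cdh26 in place of Cdh8 (0.157) and Cdh9 (0.366). Log2 fold changes turned sign in some fits. Without a library, Cdh24 ran from -0.816 (without the unnumbered KO library) to 0.0827 (without KO 1), with 0.0182 without KO 2 and 0.0006851 without control 4, Pcdhb4 from -0.467 to 0.0483 (without the unnumbered KO library), Pcdhga5 from -0.14 to 0.0555 (without control 4), Pcdhgb6 from -0.0892 (without the unnumbered KO library) to 0.253, with -0.0227 without control 3, and Pcdhgb7 from -0.0564 (without the unnumbered KO library) to 0.505. With edgeR without control 4, Cdh24 was 0.0107 and Pcdhga5 0.0623, with library totals Pcdh1 was 0.0283 and Pcdhga5 0.0338, with the block of 4 libraries Pcdhga5 was 0.044 and Pcdhgb7 -0.00331, and with that of 6 libraries Pcdhgb6 was -0.0171. The cause was not tested. Of the other single-gene values, 478 kept direction and side of the threshold, 57 lost the call and 8 gained it. Summed arrays kept their direction in every alternative run. Members with few counts, such as Cdh18 with at most 30 raw counts in a library, are limited by depth.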
